A study of Mus musculus with 10 samples.

Results

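The genes described here are 44 regulators and enzymes of the cell cycle and of DNA replication, taken from a list of gene symbols, out of 22180 genes measured by a transcript cluster, the array's probe set for a gene, annotated with a single gene symbol. Of the 44, 19 act in S phase, 21 in mitosis, and 4 govern the G1 phase or its exit. Of these, 42 were measured; Ccne2 and Ccnb1 had no cluster with that symbol alone. Cdc6 and Bub1 lay below the level filter (a mean of log2 3.98, the 40th percentile), so 40 of the 44 were among the 13308 genes tested.

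The RNA came from livers of 4-week-old male mice and was read on 10 arrays. The 4 controls had the genotype Rosa26-rtTA, a doxycycline-dependent transcription factor placed at the Rosa26 locus. The other 6 livers carried rtTA and a short hairpin RNA against Sod2, the mitochondrial superoxide dismutase: SOD2 shRNA 1 in 3 livers and SOD2 shRNA 2 in 3 livers. Doxycycline chow at 625 mg/kg was fed to the pregnant dams over embryonic days 0 to 12.5, and the controls were littermates that carried rtTA alone. The labels do not say which cells express the hairpin, and 3 of the controls were littermates in the cohort of shRNA 2 and 1 in that of shRNA 1, without a statement of which arrays these are. Whether the livers came from separate animals is not stated in the labels, and the p-values reflect only how these samples varied. Sod2 itself lay between log2 10.24 and 10.49 on all 10 arrays.

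At 4 weeks the mouse liver is still growing, and part of its cells pass through the cell cycle. Before S phase, cyclin D and cyclin E kinases release E2F factors, which switch on the genes for origin licensing, the replicative helicase and deoxynucleotide synthesis. Later, the complex that holds B-MYB or FOXM1 at the CHR element, often beside CCAAT boxes bound by NF-Y, switches on the mitotic genes. The inhibitors p21 (Cdkn1a) and p27 (Cdkn1b) hold cyclin kinases in check. In whole liver RNA, fewer cycling cells and less RNA per cycling cell cannot be told apart.

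The promoter letters of the S phase and mitotic genes are given first, because the known control of both groups of genes runs through them. RefSeq windows on GRCm38.p6, from 250 bases before to 50 after the gene's start, were found for 35 of the 44 genes. The CHR motif was searched as TTTGAA or TTCGAA, the E2F motif as TTTGGCGC, TTTCGCGC or TTTCCCGC, and the CCAAT box as CCAAT, each on both strands; E2F matches of opposite strand may overlap. CHR letters stood in 13 of 17 mitotic genes and in 3 of 15 S phase genes, and in 21.7% of all 27018 genes in the table. E2F letters stood in 6 of 15 S phase genes and 1 of 17 mitotic genes, against 2.1% of all genes. CCAAT was in 9 of the 15 and 15 of the 17, against 41.1% of all genes. The GC box, GGGCGG, was searched too and stood in 12 of the 15 and 14 of the 17, against 38.2%. These shares of all genes include genes not tested here. Of the tested genes with a window, 397 had E2F letters and 10019 had none, and 1691 had CHR letters and 8725 had none. A match describes letters, not a bound site. Below, 185 bases (160 before and 25 after the start) are shown for 2 helicase genes, with E2F and CCAAT letters in capitals, and for 3 mitotic genes, with CHR and CCAAT letters in capitals. All are written on the gene's own strand.
Mcm5, chr8:75109349-75109533, plus strand: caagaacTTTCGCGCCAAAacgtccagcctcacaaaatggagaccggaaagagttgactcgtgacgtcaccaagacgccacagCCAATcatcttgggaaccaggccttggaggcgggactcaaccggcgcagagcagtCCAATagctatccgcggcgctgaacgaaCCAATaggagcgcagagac
Mcm6, chr1:128359681-128359865, minus strand: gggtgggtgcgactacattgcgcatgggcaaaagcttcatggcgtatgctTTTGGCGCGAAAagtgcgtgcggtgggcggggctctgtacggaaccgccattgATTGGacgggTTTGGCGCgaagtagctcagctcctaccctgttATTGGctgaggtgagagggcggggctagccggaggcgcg
Ccnb2, chr9:70421530-70421714, minus strand: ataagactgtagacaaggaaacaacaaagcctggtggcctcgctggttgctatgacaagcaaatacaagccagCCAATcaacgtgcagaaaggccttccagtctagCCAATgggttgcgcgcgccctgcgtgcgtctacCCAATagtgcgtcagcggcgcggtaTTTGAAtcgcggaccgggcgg
Cdc20, chr4:118437319-118437503, minus strand: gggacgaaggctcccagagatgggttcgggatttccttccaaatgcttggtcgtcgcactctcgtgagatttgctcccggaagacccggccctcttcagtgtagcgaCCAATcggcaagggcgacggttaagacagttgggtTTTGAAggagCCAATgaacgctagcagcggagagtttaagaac
Mki67, chr7:135716355-135716539, minus strand: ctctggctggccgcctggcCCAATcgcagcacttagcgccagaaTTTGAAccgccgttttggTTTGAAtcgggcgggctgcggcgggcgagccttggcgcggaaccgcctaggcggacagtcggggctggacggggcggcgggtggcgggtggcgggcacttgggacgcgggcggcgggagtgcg
In the printed stretch of Ccnb2 the CHR letters begin 5 bases after the start, and the gene's other CHR match of 2 lies outside that stretch. In Cdc20 they begin 18 bases before the start. In Mki67 both CHR matches lie farther out, at 116 and 98 bases before the start. The paired E2F letters of Mcm5 begin 153 and 149 bases before its start and those of Mcm6 at 110 and 106, with a further match at 47.

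The first question was whether these genes differed at 4 weeks between livers with a hairpin and controls. No member passed an adjusted p of 0.05 in limma in any comparison. In the mean of both hairpin lines against control, 0 of 40 tested members passed; 1 of 13308 genes did, which is 0.00751%, and 0% were lower. At an unadjusted p under 0.05, 5 members were higher (Tyms, Rrm2, Cdc45, E2f1 and Kif11) and 1 was lower (Cdc34), against 4.86% and 3.51% of all genes. Of the 40 differences 33 were above 0, as were 52% of all genes tested. The median difference was +0.11 for the 17 S phase genes tested, +0.15 for the 19 mitotic genes and +0.01 for all genes. These genes were listed with earlier results of the same arrays known, so the counts and medians are descriptions.

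**Figure D1:**
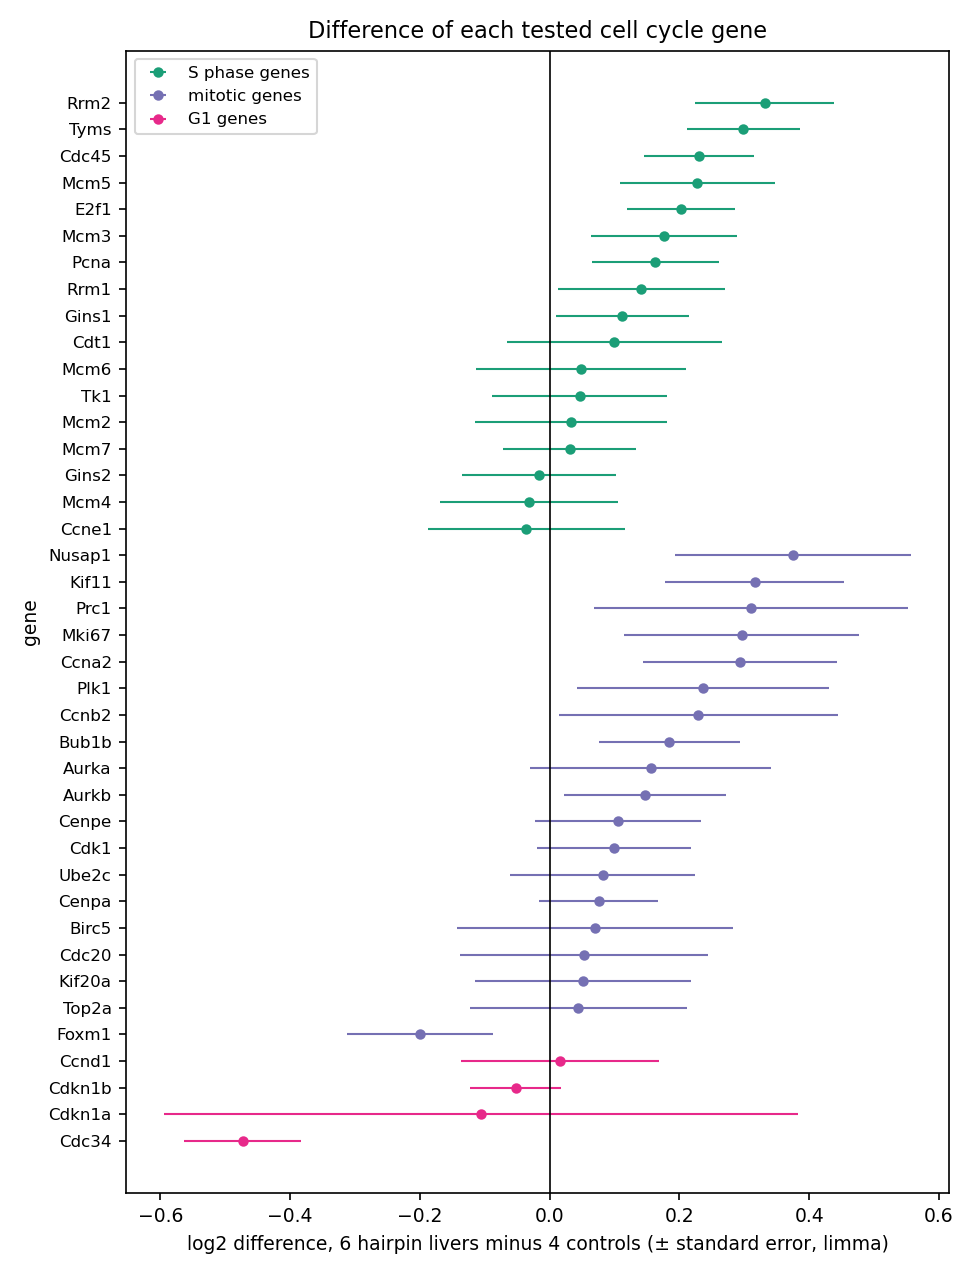
Log2 difference of each of the 40 tested genes, 6 hairpin livers minus 4 controls, with standard errors from limma (x axis), by gene (y axis), in 3 groups by role. Most S phase and mitotic genes lie to the right of 0, and none passed an adjusted p of 0.05. Of the 40 genes 7 lie to the left, with Cdc34 and Foxm1 the farthest.

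By line, the S phase median was +0.08 for shRNA 1 and +0.13 for shRNA 2 against the shared 4 controls, and the mitotic median +0.14 and +0.20. In shRNA 1 livers 0 of 40 members passed, with 4 higher and 1 lower at an unadjusted p under 0.05, against 4.57% and 3.32% of all genes, of which 0 of 13308 passed. Rrm2, Tyms and Cdc45 lay above every control in all 3 livers and Cdc34 below, against 5.07% and 3.82% of all genes. Of the 40 members 30 were above 0, against 52.4% of all genes. In shRNA 2 livers 0 of 40 passed, against 0.00751% of all genes, and 6 were higher and 1 lower at an unadjusted p under 0.05, against 4.14% and 3.46%. E2f1 and Bub1b lay above every control in all 3 livers and Cdc34 below, against 3.88% and 3.41% of all genes. Of the 40 members 33 were above 0, against 51.2%. Between the lines 0 of 40 passed in limma, against 0.015% of all genes, with 3 higher and 3 lower in shRNA 1 at an unadjusted p under 0.05, against 3.32% and 2.7%. Rrm2 and Cdc34 were higher in every shRNA 1 liver than in any shRNA 2 liver and Mcm5, Bub1b and Cenpa lower, against 5.94% and 5.36% of all genes. Of the 40 members 15 were above 0, against 51.1%. No difference between the lines passed the threshold for any of these genes. Each line had its own cohort, so line and cohort cannot be told apart in any difference between the lines given here. The differences from control also mix line with cohort in part, most for shRNA 1. Of the 4 shared controls 1 was of the shRNA 1 cohort and 3 of the shRNA 2 cohort, and which arrays these are is not stated. The part of cohort in the differences of either line, or of both, from control was not tested.

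The S phase genes were read by role. All 6 subunits of the MCM helicase, which unwinds DNA at the fork (Mcm2 to Mcm7), were tested. Their differences ran from -0.03 to +0.23. All 6 had their lowest level of the 10 arrays in control replicate 4. Mcm5 had levels of log2 5.74, 5.57, 5.47 and 5.11 in controls, 5.64, 5.45 and 5.44 with shRNA 1, and 6.01, 5.94 and 5.71 with shRNA 2. The shRNA 2 livers were the highest of the 3 groups, but the lowest of them lay under control replicate 1. The difference of shRNA 2 from control was +0.42 (standard error 0.14, limma adjusted p = 0.620), and that of both lines +0.23 (adjusted p = 0.641). Without control replicate 4 the latter was +0.11, and without control replicate 1 it was +0.32.

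Origin licensing and firing factors were Cdt1, which loads the helicase, Cdc45 and the GINS subunits Gins1 and Gins2, which complete it. Their differences ran from -0.02 to +0.23. Cdc45 led them, with levels of log2 4.44, 4.21, 4.24 and 4.13 in controls, 4.65, 4.55 and 4.47 in shRNA 1 livers and 4.38, 4.54 and 4.33 in shRNA 2 livers. All 3 shRNA 1 livers stood above every control, and only 1 of 3 shRNA 2 livers did. The difference of both lines was +0.23 (standard error 0.08, limma adjusted p = 0.504). Cdc6, which recruits the helicase with Cdt1, was not tested and had means of 3.46 in controls, 3.32 with shRNA 1 and 3.43 with shRNA 2.

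Among the enzymes that supply deoxynucleotides were the 2 S phase genes with the largest differences. Tyms, thymidylate synthase, had levels of log2 6.64, 6.55, 6.54 and 6.46 in controls, 6.76, 6.84 and 6.90 in shRNA 1 livers and 6.64, 6.92 and 7.02 in shRNA 2 livers. Of the 6 hairpin livers, 5 were above every control, and shRNA 2 replicate 1 was level with the highest control. The difference was +0.30 (standard error 0.09, limma adjusted p = 0.427), a linear ratio of 1.23, and was similar by line at +0.28 and +0.31.

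Rrm2, the S phase subunit of ribonucleotide reductase, was highest in shRNA 1 livers. Its levels were log2 5.69, 5.40, 5.40 and 5.34 in controls, 6.29, 5.78 and 5.95 with shRNA 1 and 5.61, 5.58 and 5.51 with shRNA 2. The shRNA 1 livers lay above every control, and the shRNA 2 livers lay within the control range. The difference was +0.55 for shRNA 1 (standard error 0.13, limma adjusted p = 0.238) and +0.11 for shRNA 2 (adjusted p = 0.873), and that between the lines was +0.44 (standard error 0.14, adjusted p = 0.687). Rrm2 has 2 clusters, and with their mean in place of the higher one the difference of both lines was +0.17 instead of +0.33. Rrm1, the other subunit, was at +0.14 (adjusted p = 0.820) and Tk1, the salvage thymidine kinase, at +0.05 (adjusted p = 0.960).

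Tk1 had levels of log2 7.43, 6.85, 6.88 and 6.92 in controls, 7.25, 7.03 and 7.04 in shRNA 1 livers and 6.99, 6.79 and 7.31 in shRNA 2 livers, so that 1 control was the highest array of all. Its difference was +0.18 without that control and -0.02 without shRNA 2 replicate 3. Pcna, the sliding clamp of the polymerases, had 7.79, 7.75, 7.90 and 7.55 in controls, 8.16, 7.92 and 7.75 with shRNA 1 and 7.81, 7.95 and 7.87 with shRNA 2. The groups overlapped, and the Pcna difference was +0.16 (standard error 0.10, limma adjusted p = 0.695), or +0.10 without control replicate 4. E2f1, the transcription factor that drives many S phase genes, had 5.36, 5.31, 5.39 and 5.47 in controls, 5.69, 5.42 and 5.76 in shRNA 1 livers and 5.62, 5.51 and 5.52 in shRNA 2 livers. Of the 6 hairpin livers, 5 were above every control, and the difference was +0.20 (standard error 0.08, adjusted p = 0.551). Ccne1, cyclin E1, was at -0.04 (adjusted p = 0.972).

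**Figure D2:**
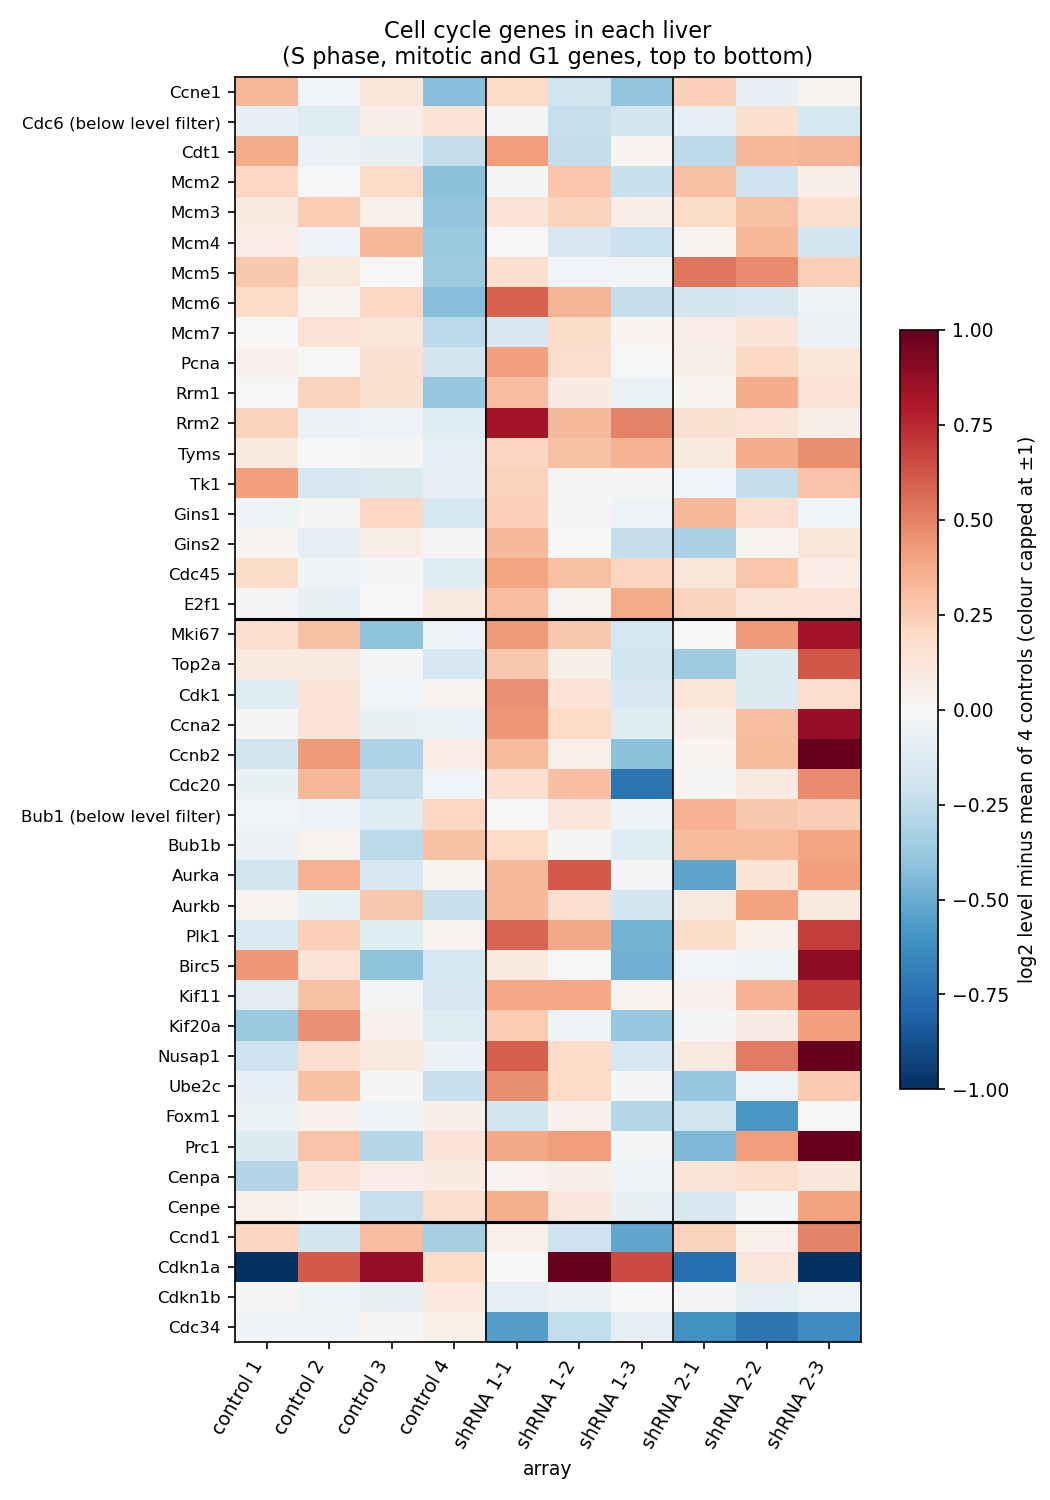
Level of each measured gene (rows) on each array (columns), as log2 level minus the mean of the 4 controls, with colour capped at 1 in either direction. Control 4 is blue over most S phase genes and shRNA 2-3 is red over most mitotic genes, while Cdkn1a changes sign within each of the control and shRNA 2 groups.

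The mitotic genes were next. Among kinases, cyclins and their activator Foxm1, 7 genes were tested and 6 were above 0. Cdk1, the kinase that starts mitosis, had levels of log2 5.70, 5.96, 5.80 and 5.85 in controls, 6.29, 5.97 and 5.66 with shRNA 1 and 5.95, 5.69 and 6.0 with shRNA 2. The groups overlapped, and the difference was +0.10 (standard error 0.12, limma adjusted p = 0.866), or +0.02 without shRNA 1 replicate 1 and +0.18 without shRNA 1 replicate 3. Ccna2, cyclin A2, had 6.03, 6.15, 5.94 and 5.95 in controls, 6.45, 6.21 and 5.90 in shRNA 1 livers and 6.08, 6.33 and 6.89 in shRNA 2 livers. It was above every control in 4 of 6 hairpin livers and below every control in 1. The Ccna2 difference was +0.29 (standard error 0.15, limma adjusted p = 0.627), or +0.18 without shRNA 2 replicate 3 and +0.38 without shRNA 2 replicate 1.

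Ccnb2, cyclin B2, shows the spread within a line. Its levels were log2 6.01, 6.63, 5.89 and 6.28 in controls, 6.52, 6.25 and 5.79 in shRNA 1 livers and 6.23, 6.52 and 7.29 in shRNA 2 livers. Only shRNA 2 replicate 3 lay above all controls, and the difference was +0.23 (standard error 0.22, limma adjusted p = 0.827). It was +0.08 without that liver and +0.37 without control replicate 2. Foxm1, a transcription factor of mitotic genes, was the only mitotic gene tested with a difference below 0. It had 4.67, 4.78, 4.69 and 4.80 in controls, 4.55, 4.78 and 4.45 in shRNA 1 livers and 4.54, 4.15 and 4.74 in shRNA 2 livers. Foxm1 lay below every control in 4 of 6 hairpin livers and differed by -0.20 (standard error 0.11, limma adjusted p = 0.671). The difference was -0.12 without shRNA 2 replicate 2 and -0.27 without shRNA 2 replicate 3.

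Of the spindle checkpoint and the anaphase-promoting complex, Cdc20, its activator, had levels of log2 6.38, 6.79, 6.22 and 6.42 in controls, 6.61, 6.76 and 5.73 in shRNA 1 livers and 6.47, 6.55 and 6.93 in shRNA 2 livers. Its difference was +0.05 (standard error 0.19, limma adjusted p = 0.968), and ran from -0.05 without shRNA 1 replicate 2 to +0.21 without shRNA 1 replicate 3. Bub1b, the checkpoint protein BUBR1, had 4.08, 4.17, 3.87 and 4.43 in controls, 4.34, 4.15 and 4.00 with shRNA 1 and 4.45, 4.46 and 4.53 with shRNA 2. The shRNA 2 livers stood just above every control, by +0.34 on average (adjusted p = 0.621), while the shRNA 1 livers stood at +0.03. For both lines it was +0.18 (adjusted p = 0.688), or +0.09 without control replicate 3 and +0.28 without control replicate 4. Bub1, not tested, had means of 3.04 in controls, 3.06 in shRNA 1 livers and 3.33 in shRNA 2 livers.

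All 5 genes of the spindle and of cytokinesis were above 0, from +0.05 for Kif20a to +0.38 for Nusap1. Nusap1, which bundles spindle microtubules, had levels of log2 3.91, 4.28, 4.21 and 4.05 in controls, 4.71, 4.30 and 3.94 in shRNA 1 livers and 4.20, 4.63 and 5.14 in shRNA 2 livers. Each line had both high and low livers, and the difference carried a standard error of 0.18 (limma adjusted p = 0.618). The mean level of Nusap1 over all arrays, log2 4.34, was not far above the level filter of 3.98. Kif11, the motor that separates the spindle poles, had 4.97, 5.36, 5.06 and 4.91 in controls, 5.46, 5.46 and 5.11 in shRNA 1 livers and 5.12, 5.42 and 5.77 in shRNA 2 livers, a difference of +0.32 (standard error 0.14, adjusted p = 0.569). It was above every control in 4 of 6 hairpin livers.

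Mki67, the proliferation marker Ki-67 that coats mitotic chromosomes, had levels of log2 7.17, 7.30, 6.61 and 6.96 in controls, 7.43, 7.28 and 6.83 in shRNA 1 livers and 7.01, 7.43 and 7.84 in shRNA 2 livers. It was above every control in 3 of 6 hairpin livers, and the difference was +0.30 (standard error 0.18, limma adjusted p = 0.705). The Mki67 difference was +0.16 without control replicate 3 and +0.40 without shRNA 2 replicate 1. Top2a, the topoisomerase that untangles chromosomes, had 5.35, 5.34, 5.24 and 5.08 in controls, 5.53, 5.32 and 5.06 with shRNA 1 and 4.90, 5.12 and 5.88 with shRNA 2. The lowest and the highest Top2a arrays were both shRNA 2 livers, and the difference was +0.04 (standard error 0.17, adjusted p = 0.970), or -0.10 without shRNA 2 replicate 3 and +0.14 without shRNA 2 replicate 1.

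The arrays with the most extreme medians differed in part between the S phase and the mitotic genes. Relative to the mean of the controls, the median S phase gene stood at +0.10, 0.00, +0.06 and -0.24 in control replicates 1 to 4, at +0.24, +0.08 and +0.00 in shRNA 1 livers and at +0.10, +0.16 and +0.12 in shRNA 2 livers. One control was low, and the other 9 arrays lay at or above 0. The low control is part of the mean that sets 0, so it also raises the other 9 arrays against it. The median mitotic gene stood at -0.08, +0.17, -0.08 and -0.03 in controls, at +0.33, +0.16 and -0.17 in shRNA 1 livers and at +0.01, +0.14 and +0.48 in shRNA 2 livers. Here the lowest array was shRNA 1 replicate 3 and the highest shRNA 2 replicate 3, so that both extremes were hairpin livers. Other arrays stood alike in both: shRNA 1 replicate 1 and shRNA 2 replicate 3 were among the 3 highest for either group of genes, and shRNA 1 replicate 3 was among the 3 lowest.

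**Figure D3:**
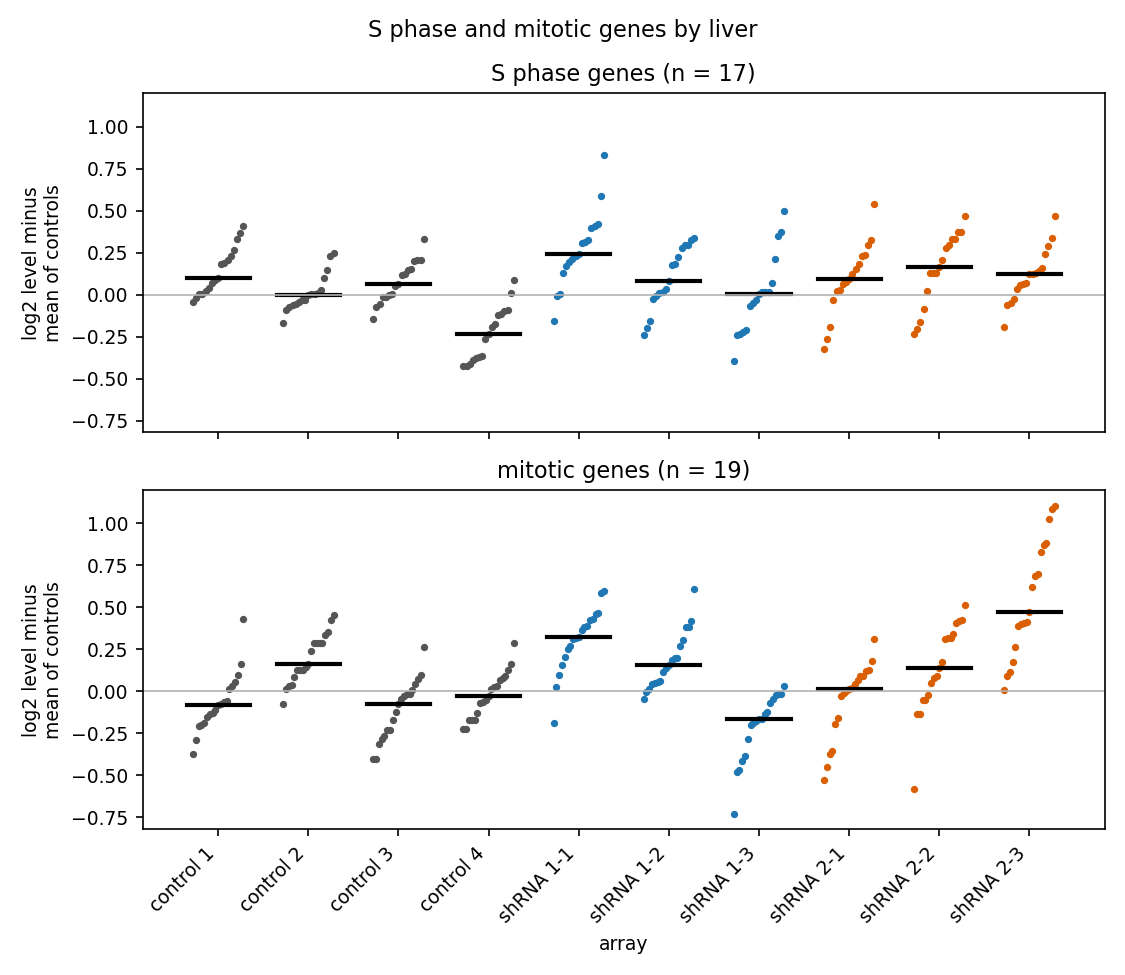
Each dot is 1 gene on 1 array, as log2 level minus the mean of that gene in the 4 controls (y axis), sorted within the array, and the bar is the median; arrays are on the x axis, with controls in grey, shRNA 1 in blue and shRNA 2 in orange. Control 4 has the lowest S phase median, at -0.24, and shRNA 2-3 the highest mitotic median, at +0.48.

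Control replicate 4 was the lowest of 10 arrays for 13 of 17 S phase genes (76.5%) and for 2 of 19 mitotic genes, while 16.4% of all genes tested were lowest there. In shRNA 2 replicate 3 the highest level was found for 12 of 19 mitotic genes (63.2%) and for 1 of 17 S phase genes, against 11.5% of all genes. Of the mitotic members tested and with a promoter window, 8 of 12 with CHR letters were highest in that liver and 3 of 3 without. Of all genes tested with a window, the share was 12.8% with CHR letters and 10.8% without.

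The other genes of both phases, from lists of textbook members, were read on the same arrays. Control replicate 4 and shRNA 2 replicate 3 were singled out after the members' values were seen. Genes of a phase counted in 1 liver are not separate observations, so all counts for these 2 arrays are descriptions. In shRNA 2 replicate 3, 27 of 44 other mitotic genes (61.4%) had their highest level, against 11.5% of all genes tested. In control replicate 4, 8 of 32 other S phase genes (25%) and 9 of 44 other mitotic genes (20.5%) had their lowest. Of all genes tested 16.4% did. Of the other mitotic genes 0 of 44 passed in either direction in both lines against control. Among the 44, 31 were above 0, against 52% of all genes, and the median difference was +0.08. Ncaph, a condensin subunit, was at +0.30 (limma adjusted p = 0.481) and Cks2, a Cdk1 partner, at +0.33 (adjusted p = 0.494). Of the other S phase genes 0 of 32 passed, 23 were above 0, against the same 52%, and the median was +0.06. Mcm8, a helicase of DNA repair, was at +0.27 and Blm, the Bloom helicase, at +0.29 (both adjusted p = 0.504).

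The medians moved when these arrays were left out. Without control replicate 4 the S phase median of both lines against control was +0.02, and without shRNA 2 replicate 3 the mitotic median was +0.08. With both left out, a setting chosen after seeing the data, the S phase median was +0.03 and the mitotic median +0.10. In shRNA 1 livers the mitotic median was -0.01 without shRNA 1 replicate 1, against +0.14 with it. In shRNA 2 livers it was +0.05 without shRNA 2 replicate 3.

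**Figure D4:**
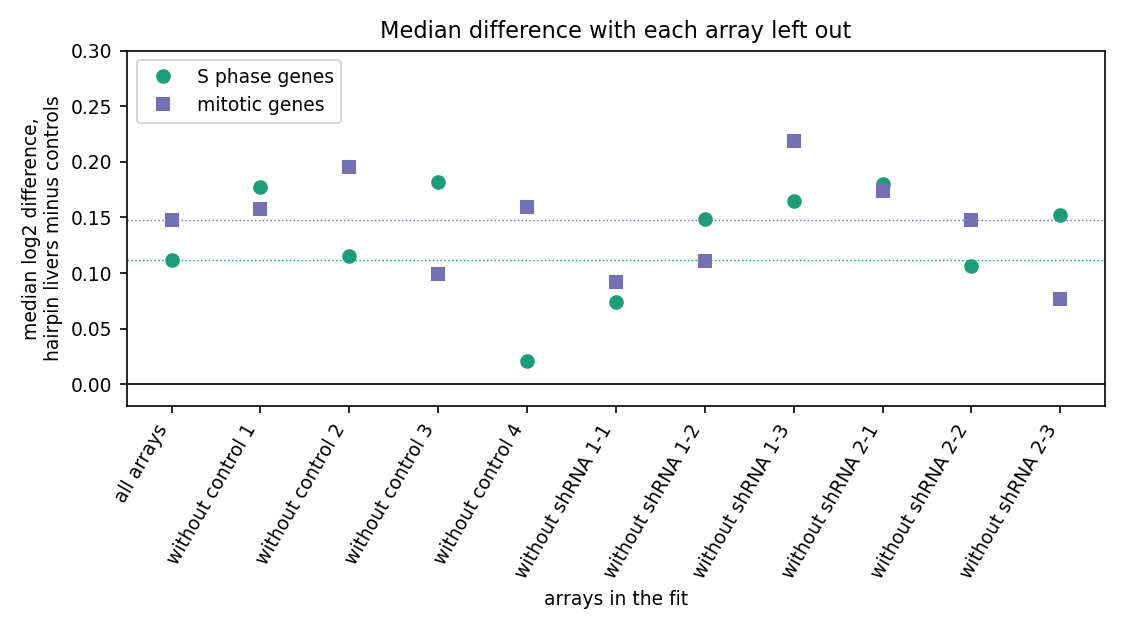
Median log2 difference of the S phase genes (circles) and the mitotic genes (squares), hairpin livers minus controls (y axis), with all arrays and with each array left out (x axis); dotted lines mark the values with all arrays. The S phase median is lowest without control 4, at +0.02, and the mitotic median is lowest without shRNA 2-3, at +0.08.

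Marker levels of other cells were compared in the same livers. The log2 summed level of 9 hepatocyte markers lay between 16.21 and 16.23 in controls, 16.22 and 16.24 in shRNA 1 livers and 16.20 and 16.24 in shRNA 2 livers. Of 15 erythroid markers 7 were measured and 3 were above the level filter, with Klf1, Epb42, Ermap and Hemgn below it; their summed level was 7.01 to 7.12 in controls, 6.93 to 7.61 in shRNA 1 livers and 6.73 to 6.95 in shRNA 2 livers. In shRNA 2 replicate 3, where the mitotic genes were highest, it was 6.73, the lowest of the 10 arrays. Only 1 of the 3 genes had its lowest level there, namely Tfrc, at log2 5.48. Rhd was at 4.54 there and lower, at 4.29, in shRNA 2 replicate 1. Of 11 neutrophil and myeloid progenitor markers only Prtn3 was above the filter, and Mpo and Elane were below it. The summed level of 11 macrophage markers was 11.82 to 12.01 in controls, 11.84 to 12.04 in shRNA 1 livers and 11.86 to 12.23 in shRNA 2 livers.

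Among 11 T and NK cell markers 9 were measured and 4 were above the filter, with Cd8a, Cd3d, Gzma, Klrb1c and Ncr1 below it, and their summed level was 6.35 to 6.57 in controls, 6.61 to 6.78 in shRNA 1 livers and 6.43 to 6.74 in shRNA 2 livers. For B cells 4 of 8 were above it, with Ms4a1, Pax5 and Fcer2a below it, and the ranges were 7.86 to 8.07, 7.79 to 7.94 and 7.89 to 8.06 in the same order. All 9 stellate cell markers were above it, with ranges of 11.84 to 11.96, 11.97 to 12.05 and 11.97 to 12.17. In shRNA 2 replicate 3, 5 of the 9 had their highest level, against 11.5% of all genes tested. All 8 sinusoidal endothelium markers were above the filter, with 11.86 to 11.98, 12.03 to 12.06 and 11.90 to 11.95. Their highest level was in shRNA 2 replicate 3 for 3 of the 8, as it was for 0 of the 11 macrophage markers. Of the markers of fetal liver 4 of 8 were above the filter, Afp included, with 7.60 to 7.81, 7.70 to 8.13 and 7.78 to 7.99. Of 7 cholangiocyte markers 3 were above it, with Krt19 and Cftr below it, and the ranges were 6.48 to 6.80, 6.14 to 6.49 and 6.38 to 6.56. The part of these cells in the levels of cell cycle genes was not tested.

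Of the G1 genes, Cdc34 was the only 1 of the 40 tested members whose 6 hairpin livers all lay beyond every control; 0 members lay above every control in all 6, against 1.04% of all genes, and 1 lay below, against 0.842%. Cdc34 is the ubiquitin-conjugating enzyme that works with SCF ligases to mark cell cycle inhibitors such as p27 for degradation. Its levels were log2 6.83, 6.84, 6.88 and 6.92 in controls, 6.32, 6.62 and 6.77 with shRNA 1 and 6.26, 6.14 and 6.25 with shRNA 2. The controls lay close together, the shRNA 1 livers spread out below them, and the shRNA 2 livers formed a tight lower group. The means were 6.87 ± 0.04 (SD, n = 4), 6.57 ± 0.23 (SD, n = 3) and 6.22 ± 0.07 (SD, n = 3).

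The Cdc34 difference of both lines was -0.47 (standard error 0.09), a linear ratio of 0.72, and did not pass at a limma adjusted p of 0.190. By line it was -0.30 for shRNA 1 (adjusted p = 0.504) and -0.65 for shRNA 2 (adjusted p = 0.215), and the lines differed by 0.35 (standard error 0.11, adjusted p = 0.687). Over all alternatives and left-out arrays it stayed between -0.52 and -0.41, with adjusted p-values of 0.121 to 0.394. Its value in these arrays was known when the genes were listed, so it is a description. RefSeq holds a Cdc34b locus, with no cluster of a single symbol here, and how far the Cdc34 probes also read it is not known.

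Genes that act with Cdc34 were compared beside it. Of 10 SCF subunits, substrate receptors and other E2 or NEDD8 enzymes tested, 0 passed. Among the 10, 6 were above 0, against 52% of all genes, and the median difference was +0.03. Skp2, the receptor that brings p27 to the ligase, was at +0.30 (limma adjusted p = 0.522) and Skp1, its adaptor, at +0.10 (adjusted p = 0.756). Skp2 stood above every control in 5 of 6 hairpin livers, and its difference was +0.17 without control replicate 4.

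The inhibitors Cdkn1b and Cdkn1a were the steadiest and the most variable members. Cdkn1b, p27, had levels of log2 6.76, 6.71, 6.68 and 6.86 in controls, 6.66, 6.69 and 6.75 in shRNA 1 livers and 6.74, 6.66 and 6.70 in shRNA 2 livers. All 10 arrays lay within 0.20, and its SD within groups of 0.06 was below that of all but 1.9% of the genes tested. The difference of both lines was -0.05 (standard error 0.07, limma adjusted p = 0.888), or -0.02 without control replicate 4.

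Cdkn1a, p21, had levels of log2 6.16, 8.46, 8.73 and 8.04 in controls, 7.84, 9.02 and 8.50 with shRNA 1 and 7.09, 7.96 and 6.02 with shRNA 2. The lowest arrays were a control and a shRNA 2 liver, and the highest was a shRNA 1 liver, with a range of 3.00 log2 units. Its SD within groups of 0.94 was above that of 99.9% of genes tested. The difference of both lines was -0.11 (standard error 0.49, adjusted p = 0.974), that of shRNA 1 +0.61 (adjusted p = 0.868), that of shRNA 2 -0.82 (adjusted p = 0.798) and that between the lines 1.43 (standard error 0.62, adjusted p = 0.804). The spread between livers of a group was larger than these differences of both lines and of each line. Leaving out single controls moved the difference of both lines from -0.67 (without replicate 1) to +0.19 (without replicate 3).

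Clock genes were set beside Cdkn1a. A clock score was formed from 8 clock genes, as the mean standardised level of 5 that peak with Dbp less that of 3 that peak with Arntl. It was 1.95, -1.35, -1.30 and -1.05 in controls, 1.03, -2.03 and -1.59 with shRNA 1 and 2.16, -0.93 and 3.11 with shRNA 2. The 3 arrays with the highest scores (shRNA 2 replicates 3 and 1 and control replicate 1) were the 3 with the lowest Cdkn1a, and shRNA 1 replicate 2, with the lowest score, had the highest Cdkn1a. The arrays fall into 2 clusters of score, with 4 above 1 and 6 below -0.9, so no correlation is given. With the score as a covariate, the Cdkn1a difference of both lines was +0.26, and the S phase and mitotic medians were +0.11 and +0.15. The labels give no hour of collection, and what moved the clock genes was not tested.

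Wee1, the kinase that restrains Cdk1 and a known clock target, is no member and was chosen after its values were seen. Its levels were log2 5.81, 5.04, 4.74 and 4.57 in controls, 5.75, 5.13 and 5.0 in shRNA 1 livers and 5.98, 5.29 and 6.90 in shRNA 2 livers. Its highest level was in shRNA 2 replicate 3, the liver with the highest mitotic genes and the lowest Cdkn1a. Its difference of both lines was +0.64 (standard error 0.31, limma adjusted p = 0.616).

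Ccnd1, cyclin D1, the growth-factor-driven partner of Cdk4, had levels of log2 8.07, 7.67, 8.17 and 7.53 in controls, 7.91, 7.66 and 7.34 with shRNA 1 and 8.09, 7.91 and 8.35 with shRNA 2. The groups overlapped, with shRNA 1 at -0.23 and shRNA 2 at +0.26 from control. The difference of both lines was +0.02 (standard error 0.15, limma adjusted p = 0.988), and that between the lines 0.48 (standard error 0.19, adjusted p = 0.784). The first changed sign with single arrays left out, at -0.10 without control replicate 4 and +0.12 without control replicate 3.

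**Figure D5:**
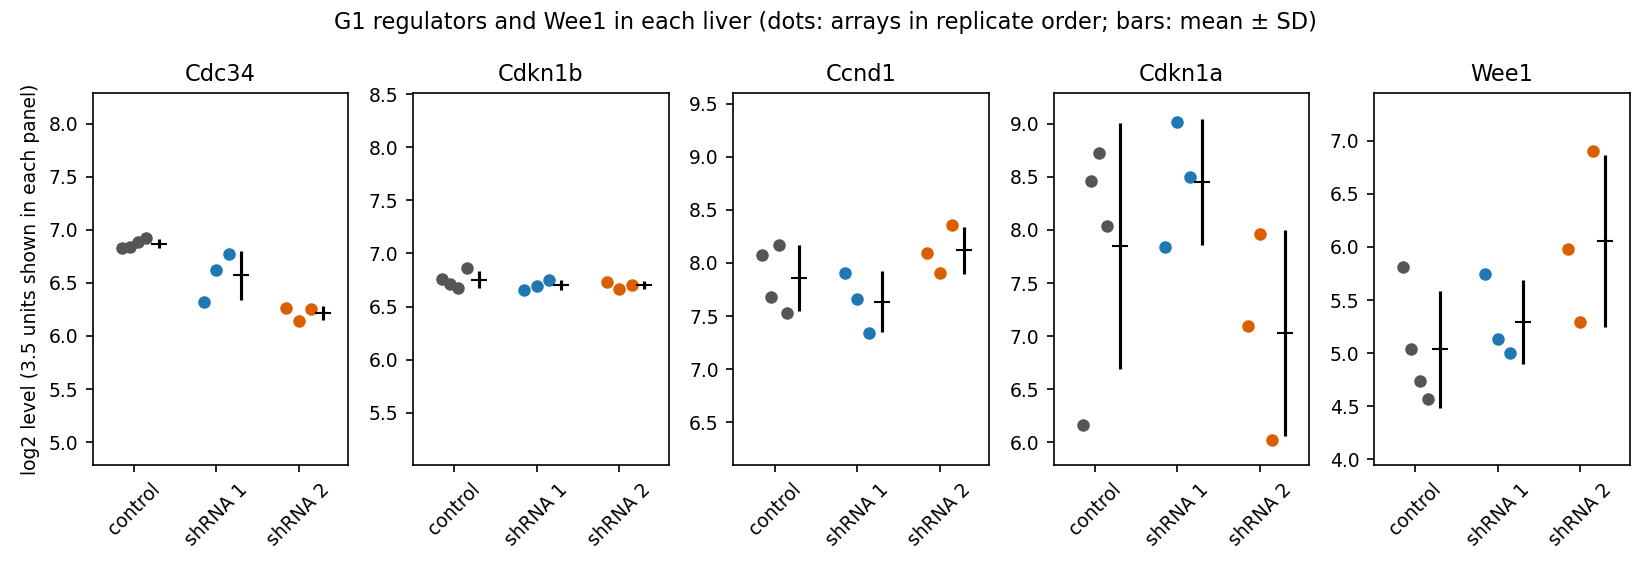
Log2 level (y axis, 3.5 units in every panel) of Cdc34, Cdkn1b, Ccnd1, Cdkn1a and Wee1 in controls, shRNA 1 and shRNA 2 livers (x axis); dots are arrays and bars the mean with SD. Cdc34 is the one gene whose hairpin livers all lie under the controls, Cdkn1b lies within 0.20 on all arrays and Cdkn1a spans 3.00.

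Among 25 other G1 regulators tested, 0 passed in limma in both lines against control. Of the 25, 15 were above 0, against 52% of all genes, and the median was +0.05. E2f8, an E2F repressor of S phase genes that takes part in hepatocyte polyploidy, was at -0.62 (standard error 0.20, adjusted p = 0.433) and E2f6, another repressor, at -0.33 (standard error 0.10, adjusted p = 0.433). E2f6 was below every control in 5 of 6 hairpin livers. E2f8 ranged from 5.25 to 6.41 in controls and from 4.83 to 5.60 in hairpin livers, and its difference was -0.44 without control replicate 4. Of 18 p53 targets tested, Cdkn1a included, 0 passed, 9 were above 0 and 9 below, with a median of +0.02. Btg2, an antiproliferative p53 target, was at -0.38 (adjusted p = 0.433) and Polk, a DNA polymerase of lesion bypass, at +0.20 (adjusted p = 0.571).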

How the data were processed

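Total RNA from 25 mg of liver was labelled with biotin and hybridised to whole-transcript mouse gene arrays, 1 sample per array. The deposited log2 values per transcript cluster were made with Affymetrix Expression Console, per the submitters' processing notes; its version is not given in the sources used here, nor are background correction, normalization and build. Values between 1.40 and 13.8, with medians per array of 4.06 to 4.17, were taken as log2. Of 41345 clusters, 23521 had 1 gene symbol, 1814 several and 16010 none in the platform annotation, and 23328 of the first matched RefSeq by Entrez identifier. For a gene with several clusters the one with the highest mean was kept. Of the measured members, Mcm7, Tyms, Top2a and Nusap1 also had clusters shared with other gene symbols, which were not read. Genes under the 40th percentile of mean level were left out.

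One limma fit (3.58.1, in R 4.3.3) over 10 arrays in 3 groups gave the comparisons, with Benjamini-Hochberg adjustment over 13308 genes, two-sided. The number of arrays limits the precision. Simulated data with known shifts served to test it. With 200 genes shifted in each of 10 runs, 61.2% of shifts of log2 0.5 passed in both lines against control. For shifts of log2 1 the share was 96.5%. Smaller shifts were not simulated, and the S phase and mitotic differences of both lines reached at most +0.38. The alternatives were 2 normalizations, 2 level filters, 2 ways to treat a gene's clusters, a block on the replicate number, weights for arrays, another variance prior, other groups in the fit, another threshold, a clock covariate and each array left out.

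The members, lists and tests were chosen with earlier results of these data known. Genes with values on every array were those always listed, the 5 of each phase with the largest moderated statistic, the 3 with the highest mean, and any past the threshold or beyond every control; for other lists 2 genes were named by that statistic. Figures used Python 3.11.15 and matplotlib 3.10.9.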

Additional observations from a re-analysis of the deposited data

Results flagged for a closer look

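Tk1 in control replicate 1, at log2 7.43, stood far above the other controls, at 6.85 to 6.92 (gap over range 0.882, above Dixon's 95% critical value for 4 samples). Cenpa, the centromeric histone, was far lower in the same liver, at 5.82, than in the other controls, at 6.18 to 6.24 (0.871). Of 44 items looked at (42 genes and 2 list medians) 2 exceeded the limit, and chance alone does so in about 5% of groups. Neither gene passed in any comparison.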

How the results depend on the processing

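In limma 0 of the tested members passed in each of the 4 comparisons under every alternative run, with an adjusted p of 0.1 as the threshold, and with each array left out. For both lines against control, 6 of 40 members had an unadjusted p under 0.05. Over the arrays left out in turn, the S phase median of both lines against control ran from 0.02 to 0.18 and the mitotic median from 0.08 to 0.22; for shRNA 1 they ran from 0.01 to 0.17 and from -0.01 to 0.24, and for shRNA 2 from 0.06 to 0.16 and from 0.05 to 0.31. Between the lines the S phase median was -0.04 (-0.04 to 0.03) and the mitotic median -0.13 (-0.25 to 0.04); with the clock covariate they were 0.09, which turns the direction of the first, and -0.07. Array weights gave 0.06 and 0.08 for both lines, and a filter at the 60th percentile gave 0.17 and 0.15. With both control replicate 4 and shRNA 2 replicate 3 left out, a choice made after seeing the data, Top2a was at -0.16 and Ccnd1 at -0.15.

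The replicate block gave an S phase median of 0.02 and a mitotic median of 0.16, with 0 members past the threshold. Control replicate 4 is alone in its number, so this fit leaves it without weight. Same-numbered arrays of different groups correlated in their deviations from the group means at -0.25 to 0.267, and differently numbered ones at -0.279 to 0.272. These ranges overlap and cannot tell whether the numbers pair the samples. Clock scores were 1.95, 1.03 and 2.16 in the arrays numbered 1 and -1.35, -2.03 and -0.93 in those numbered 2. In those numbered 3 they were -1.30, -1.59 and 3.11. Whether the numbers mark a shared litter, day or hour was not tested.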

Other observations

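The genes next to Cdc34 on chromosome 10 were set beside it. Of the 5 nearest tested protein-coding genes on each side in RefSeq order, 3 were lower and 7 higher in both lines against control, from -0.08 to +0.23, and 0 had an unadjusted p under 0.05 in limma, with a smallest adjusted p of 0.681. Of 11 macrophage markers tested, 8 were above 0 and 3 below, with a median of +0.11, while 52% of all genes were above 0. Of the 11, 1 stood apart from the controls: Vsig4, a receptor of Kupffer cells. It lay above every control in 6 of 6 hairpin livers, at +0.24 (limma adjusted p = 0.464). Of 3 cholangiocyte markers tested, Krt7 was at +0.13, Epcam at -0.02 and Sox9, a factor of the bile ducts, at -0.46 (adjusted p = 0.303), with Sox9 below every control in 6 of 6. Such gaps were found for 1.04% and 0.842% of all genes.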
